A study of Mus musculus with 8 samples.

Results

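The interferon-inducible GTPases reported here are 9 mouse genes of 2 families. *Gbp2*, *Gbp3*, *Gbp5*, *Gbp7* and *Gbp9* encode guanylate-binding proteins, and *Igtp*, *Irgm1*, *Irgm2* and *Iigp1* encode immunity-related GTPases. They were chosen by name among 21938 protein-coding genes, and the H3K9ac peaks within 1 kb of any of their TSSs and between gene start and gene end were read out in mm10. A promoter peak was listed in at least 1 library for 8 of the 9 genes, and for 12557 of all protein-coding genes. *Iigp1* (chromosome 18, 60376027 to 60392634) had no peak in any library, in its promoter or its body.

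H3K9ac, the acetylation of histone H3 at lysine 9 that marks active promoters, was measured by ChIP-seq with the antibody ab4441 in frozen BM cells of C57BL/6 mice, given as whole BM in the labels, while a title in the study speaks of c-kit+ cells. All mice carried the *NUP98-HOXD13* transgene, a model of MDS that can progress to AML. *GFI1-36S* and *-36N* mice express human *GFI1* cDNA, in its serine or its asparagine form, from the murine locus, and *GFI1-KD* mice express *GFI1* at a reduced level. Mice of each genotype received curcumin (20 mg/kg weekly, i.p.), a natural histone acetyltransferase inhibitor, or vehicle alone (DMSO), the group that the labels give as no curcumin. Animals were euthanized when leukaemic or in poor health, so the time on treatment may differ between libraries, and neither the ages nor the number of mice behind a library were given in the sources used here.

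There was 1 library per group, 6 in all, so the differences rest on single libraries and carry no p-values. The lists held 20354 to 49213 peaks, and the median summit held 24 to 36 fragments. Marker genes of BM cell types differed between libraries, most of all in 1 of them. In the library labelled *GFI1-36S* curcumin, 0 of 10 neutrophil and 0 of 6 monocyte markers had a promoter peak, against 10 and 6 with vehicle, whereas 8 of 9 T cell markers had one, against 2. In *GFI1-36N* mice the neutrophil markers numbered 9 in either library, and in *GFI1-KD* mice 10 with vehicle and 6 with curcumin. All 6 monocyte markers had a peak in these 4 libraries. T cell markers with a peak, vehicle first, numbered 5 and 1 of 9 for the *-36N* pair, and 2 and 1 for the *-KD* pair. B cell markers, 6 in the list, numbered 1 and 0 for the *GFI1-36S* pair, 1 and 1 for *-36N*, and 3 and 1 for *-KD*, in the same order. Of 7 erythroid markers, a peak was found at 7 (vehicle) and 1 (curcumin) in *GFI1-36S*, 5 and 4 in *-36N*, and 7 and 2 in *-KD* mice. Of 7 stem and progenitor markers the numbers were 6 and 2, 7 and 6, and 7 and 7. Among these, *Hoxa9* had no peak in the *GFI1-36S* curcumin library and a rank of 10.998 in the *GFI1-KD* vehicle library, against 97.4 to 99.7 in the other 4. The file names of the *GFI1-36S* pair carry the treatments in the opposite order to the labels, which were followed. In the *GFI1-36N* pair the file names point to a heterozygous animal for vehicle and to a homozygous one for curcumin. The labels are silent on this, so that allele dose and treatment cannot be told apart there. In cells of mixed types, fewer cells of a type and less H3K9ac per cell cannot be told apart.

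Guanylate-binding proteins and immunity-related GTPases are made in response to interferons, mainly interferon-γ, in macrophages and many other cells. They assemble on the vacuoles and membranes of intracellular bacteria and parasites and help to break them open. Interferon-γ signals through its receptor and the kinases JAK1 and JAK2 to promoters with the GAS element. Type I interferons signal to promoters with the ISRE, an element bound by complexes that hold IRF9 and also read by IRF1.

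The promoter sequences are shown because ISRE cores lay under the H3K9ac peaks described here. RefSeq promoter windows, from 250 bases before to 50 after the start (GRCm38.p6), were found for 7 of the 9 genes. *Gbp3* had 2 windows. *Gbp9* and *Iigp1* had none. Each of the 7 genes held the ISRE core, searched on both strands as GAAA, any 2 bases and GAAA, in at least 1 window, as did 3.44% of 32851 windows. Each sequence is given 5′ to 3′ on the strand of the gene, with the ISRE cores in capitals.
Gbp5, chr3:142496739-142496808, + strand: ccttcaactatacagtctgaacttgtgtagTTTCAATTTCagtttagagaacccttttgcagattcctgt
Gbp7, chr3:142530253-142530322, + strand: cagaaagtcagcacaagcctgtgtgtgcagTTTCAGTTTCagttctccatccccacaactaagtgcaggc
Gbp3, chr3:142559988-142560025, + strand: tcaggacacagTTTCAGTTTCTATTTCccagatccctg
Gbp2, chr3:142620594-142620623, + strand: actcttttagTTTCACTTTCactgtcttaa
Irgm1, chr11:48871428-48871457, - strand: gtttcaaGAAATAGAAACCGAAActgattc
Igtp, chr11:58199492-58199555, + strand: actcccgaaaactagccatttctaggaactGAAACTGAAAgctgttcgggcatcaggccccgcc
Irgm2, chr11:58214883-58214952, + strand: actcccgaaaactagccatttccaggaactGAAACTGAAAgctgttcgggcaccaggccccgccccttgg

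All 30 bases shown for *Irgm1* and 22 of the 30 shown for *Gbp2* lie in annotated exons, and the *Gbp2* core begins 2 bases after its GENCODE TSS (142620602). *Gbp3* and *Irgm1* each held 2 overlapping cores in a single stretch of capitals. *Gbp7*, *Gbp3*, *Igtp* and *Irgm2* shared the core GAAACTGAAA when it was read from its GAAA end. The GAS letters TTCNNNGAA, searched on both strands, were found in the windows of *Gbp5*, *Gbp7*, *Igtp* and *Irgm2* and in 8.30% of all windows. In *Igtp* and *Irgm2* the GAS match ended shortly before the ISRE core. Aligned over 265 bases, the *Igtp* and *Irgm2* windows were identical at 244, or 92.1%. A deposited peak covered each whole ISRE core in all 6 libraries, with 1 exception. In the *GFI1-KD* curcumin library the peak ended at 58214920, inside the core of *Irgm2* (58214913 to 58214922). A letter match is a description and not a measured binding site.

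To compare promoters within a library, each gene was given a rank on a scale of 0 to 100 by the fold enrichment of its strongest promoter peak among all protein-coding genes with such a peak, and 0 if it had none. Fold enrichment is the caller's ratio of summit fragments to background. For 69.0% to 90.3% of the peaks in a list, this background was the most frequent value of the library. With vehicle, 8 of the 9 GTPase genes had a promoter peak in each genotype. With curcumin, the number was 7, 7 and 8 in *GFI1-36S*, *-36N* and *-KD* mice. Of all protein-coding genes, 51.9% had a promoter peak with vehicle and 44.3% with curcumin in *GFI1-36S*, 51.7% and 53.8% in *-36N*, and 53.6% and 50.6% in *-KD* mice.

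**Figure D1:**
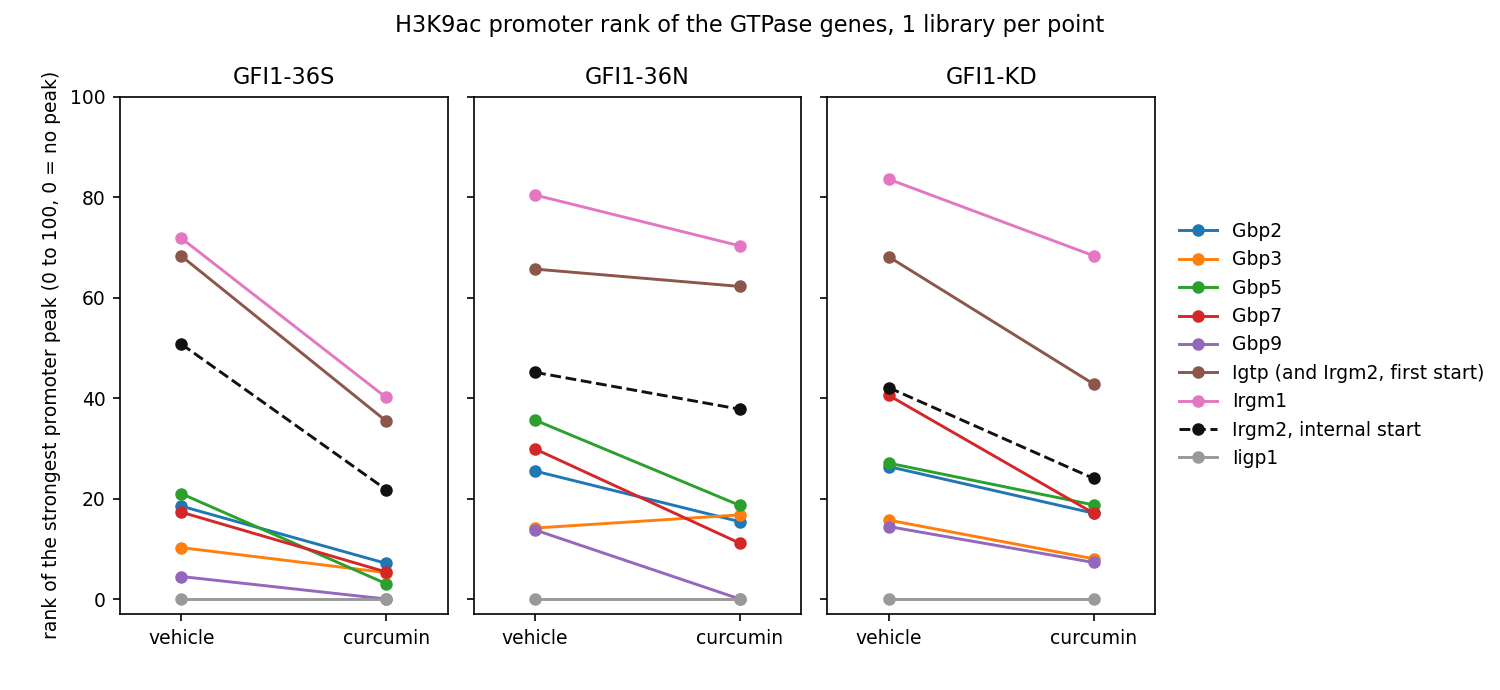
Rank of the strongest promoter peak (vertical axis, 0 to 100, with 0 for no peak) in the vehicle and curcumin library of each genotype, with 1 point per gene and library. *Irgm1* and *Igtp* ranked highest in every library, and *Gbp3* in *GFI1-36N* mice was the single line that rose, from 14.1 to 16.8.

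Among the guanylate-binding protein genes, *Gbp2*, *Gbp3*, *Gbp5* and *Gbp7* lie side by side on chromosome 3, between 142493978 and 142638008. Their promoter peaks were of low to moderate rank. *Gbp5*, whose product takes part in inflammasome responses, had fold enrichments of 10.9 with vehicle and 3.96 with curcumin in *GFI1-36S*, 14.1 and 9.35 in *-36N*, and 13.4 and 9.95 in *-KD* mice. Its rank was 20.96 and 3.05 in *GFI1-36S*, 35.6 and 18.6 in *-36N*, and 27.0 and 18.7 in *-KD* mice. The 3 vehicle libraries lay above the 3 curcumin libraries by both measures. The summit held 64 and 27 fragments in *GFI1-36S*, 97 and 53 in *-36N*, and 97 and 59 in *-KD* mice. At the upstream end of *Gbp5*, a second small peak was listed in the 4 *GFI1-36N* and *-KD* libraries but in neither *GFI1-36S* library. Its fold enrichment was 5.18 (vehicle) and 4.85 (curcumin) for *GFI1-36N*, against 3.99 and 6.14 for *-KD* mice, so that in *-KD* mice it was higher with curcumin.

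*Gbp7* encodes a GTPase linked to the oxidative and autophagic killing of bacteria. Its fold enrichment was 9.25 (vehicle) and 4.62 (curcumin) in *GFI1-36S*, 12.4 and 5.88 in *-36N*, and 18.6 and 9.28 in *-KD* mice. Its rank was 17.3 and 5.38 in *GFI1-36S*, 29.9 and 11.1 in *-36N*, and 40.5 and 17.1 in *-KD* mice. The rank was lower with curcumin in all 3 pairs, and the highest curcumin library, *GFI1-KD*, lay just below the lowest vehicle library, *GFI1-36S*.

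*Gbp2* encodes a GTPase that helps to lyse the vacuoles of intracellular bacteria. Its fold enrichment was 9.76 and 4.99 in *GFI1-36S*, 11.1 and 7.91 in *-36N*, and 13.1 and 9.28 in *-KD* mice, in each case with vehicle first. The rank was 18.5 and 7.09 in *GFI1-36S*, 25.5 and 15.4 in *-36N*, and 26.4 and 17.1 in *-KD* mice. Again every vehicle library ranked above every curcumin library.

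*Gbp3* departed from its neighbours. Its fold enrichment was 6.06 (vehicle) and 4.53 (curcumin) in *GFI1-36S*, 7.05 and 8.48 in *-36N*, and 8.30 and 5.62 in *-KD* mice. The rank was 10.2 and 5.25 in *GFI1-36S*, 14.1 and 16.8 in *-36N*, and 15.7 and 8.01 in *-KD* mice. It was the only one of the 8 genes with a peak that ranked higher with curcumin in any pair, and the *GFI1-36N* curcumin library was the highest of all 6. The summit held 48 fragments in either *GFI1-36N* library.

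*Gbp9* lies apart on chromosome 5 (105077630 to 105139539, minus strand). No peak was found at its upstream TSS in any library. The peaks flanked a second annotated TSS at 105110276, inside the gene. The strongest had a fold enrichment of 4.05, 6.90 and 7.67 with vehicle in *GFI1-36S*, *-36N* and *-KD* mice, and of 5.31 with curcumin in *-KD* mice. With curcumin, neither *GFI1-36S* nor *-36N* mice had a peak there. Of all genes with a promoter peak in the pair, 16.2% had one with vehicle alone in *GFI1-36S* and 1.84% in *-36N* mice. In *GFI1-KD* mice this share was 6.73%, and none of the GTPase genes was among them. Ranks with vehicle were 4.48, 13.7 and 14.4 in *GFI1-36S*, *-36N* and *-KD* mice, and the rank of *GFI1-KD* mice with curcumin was 7.27. A missing peak means only that the signal was below the threshold of the peak caller.

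The immunity-related GTPases with a peak ranked higher than the guanylate-binding protein genes in all 6 libraries. *Irgm1*, on chromosome 11 (48861968 to 48871683, minus strand), encodes a regulator that restrains the effector GTPases and acts in autophagy. Its fold enrichment was 25.7 (vehicle) and 11.0 (curcumin) in *GFI1-36S*, 25.0 and 26.5 in *-36N*, and 32.8 and 24.0 in *-KD* mice. The rank was 71.8 and 40.1 in *GFI1-36S*, 80.4 and 70.3 in *-36N*, and 83.6 and 68.3 in *-KD* mice. In *GFI1-36N* mice its fold enrichment was thus slightly higher with curcumin while its rank was lower. Over all promoters with a peak in both libraries, the median ratio of fold enrichments, curcumin over vehicle, was 1.21 in this pair, 0.593 in *GFI1-36S* and 0.865 in *-KD* mice.

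*Igtp*, also called Irgm3, and *Irgm2* encode the other regulators of the family. In the annotation, a TSS of *Irgm2* (58199618) lies 62 bases downstream of that of *Igtp* (58199556) on chromosome 11, so that both genes were assigned the same strongest peak, and the 2 genes are not independent in the counts. This peak had a fold enrichment of 24.7 with vehicle and 10.3 with curcumin in *GFI1-36S*, 21.1 and 24.2 in *-36N*, and 27.4 and 17.4 in *-KD* mice. Its rank was 68.3 and 35.4 in *GFI1-36S*, 65.7 and 62.2 in *-36N*, and 68.1 and 42.8 in *-KD* mice. The *GFI1-36N* difference was the smallest of the 3.

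The internal TSS of *Irgm2* (58215008 to 58215028) had its own peak. The RefSeq window of *Irgm2* (58214727 to 58215026) covers the first of these positions. Its fold enrichment was 20.3 and 8.09 in *GFI1-36S*, 16.4 and 17.5 in *-36N*, and 19.0 and 11.9 in *-KD* mice. The rank was 50.7 and 21.8 in *GFI1-36S*, 45.1 and 37.8 in *-36N*, and 42.1 and 24.0 in *-KD* mice. The order of vehicle and curcumin at this TSS was the same as at the *Igtp* promoter in each pair.

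**Figure D2:**
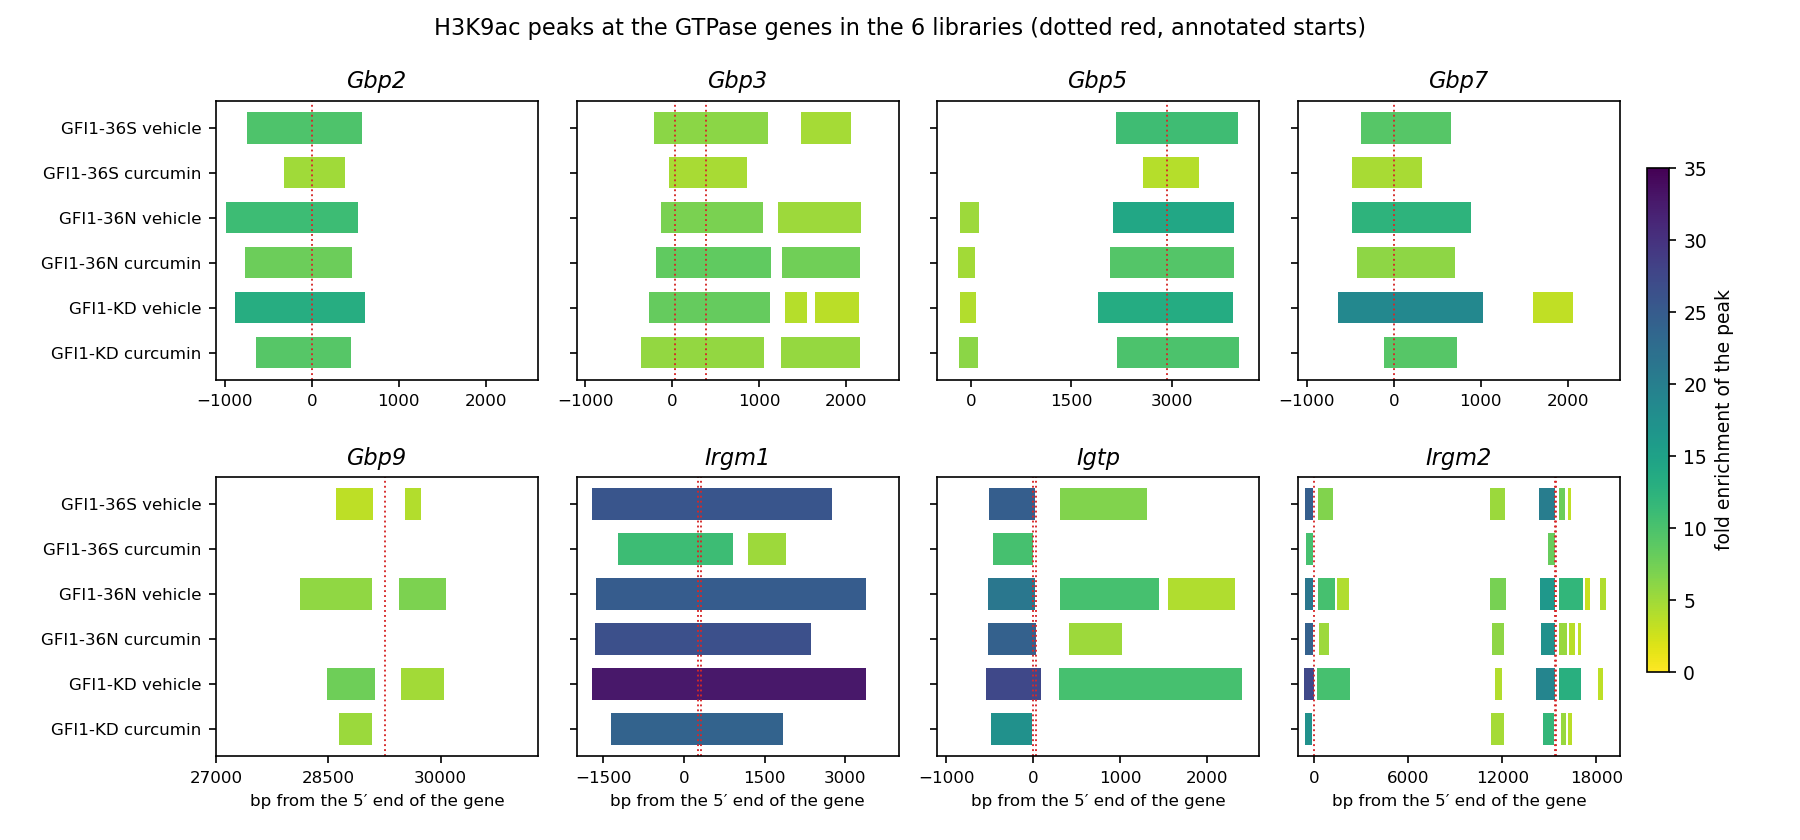
Deposited H3K9ac peaks at the 8 genes with a peak, drawn as bars by distance in bp from the 5′ end of the annotated gene (horizontal axis) for each library (rows), coloured by fold enrichment. Dotted lines mark annotated TSSs. The bar at *Gbp9* is absent in 2 curcumin libraries, and the second bar at *Igtp* is absent in 2 curcumin libraries.

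In all, 8 of the 8 GTPase genes with a peak ranked lower with curcumin in *GFI1-36S*, 7 of 8 in *-36N* and 8 of 8 in *-KD* mice. Of all genes, 69.1%, 39.9% and 62.9% ranked lower in these pairs. A fall of at least 10 points was found for 6, 5 and 4 of the 8 genes, against 41.4%, 11.3% and 20.6% of all genes. The median change in rank of the 8 genes was −14.9, −10.1 and −12.2 in *GFI1-36S*, *-36N* and *-KD* mice, and that of all genes −6.61, 1.89 and −2.34. With *Igtp* left out, 7, 6 and 7 of 7 genes ranked lower, with medians of −11.9, −10.1 and −9.26. In the *GFI1-36S* pair the shares of all genes were high as well, and with the treatments exchanged, as in its file names, 0 of 8 genes ranked lower. In *GFI1-KD* mice the neutrophil markers had a summed rank of 300.7 with vehicle and 78.3 with curcumin, with 7 of 10 lower. In *-36N* mice it was 124.1 and 162.8, with 3 of the 9 with a peak lower. The summed rank of the monocyte markers was 195.0 and 121.6 in *GFI1-36N* and 169.7 and 192.6 in *-KD* mice, with 6 and 2 of 6 lower. The summed rank of the erythroid markers was 137.4 and 24.3, 61.3 and 110.7, and 154.8 and 62.7 in *GFI1-36S*, *-36N* and *-KD* mice. All 7 ranked lower in *GFI1-36S* and *-KD* mice, as the GTPases did, against 2 of 6 with a peak in *-36N* mice. In *GFI1-36S* mice the summed rank was 184.5 and 0 for the neutrophil and 95.4 and 0 for the monocyte markers. For the T cell markers it was 27.2 and 381.6 in *GFI1-36S*, 26.3 and 7.62 in *-36N*, and 5.69 and 3.18 in *-KD* mice. Among T cell markers with a peak in the pair, 0 of 8, 4 of 5 and 2 of 2 ranked lower. The part of cell composition in the GTPase ranks was not tested.

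The raw fold enrichment gave a different count in *GFI1-36N* mice. Among the genes with a peak in both libraries it was lower with curcumin for 7 of 7 in *GFI1-36S*, 3 of 7 in *-36N* and 8 of 8 in *-KD* mice. The shares of all promoters were 94.2%, 14.7% and 79.6%. The 3 genes in *GFI1-36N* mice were *Gbp2*, *Gbp5* and *Gbp7*, the neighbours on chromosome 3, whereas *Gbp3*, *Irgm1* and the peak shared by *Igtp* and *Irgm2* had a higher fold enrichment with curcumin.

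Summit heights gave the counting error behind these ratios. Fragment numbers at the summits were worked back from the deposited fold enrichment and p-value and divided by the genome background of the library. In *GFI1-36S* mice the ratio of heights, curcumin over vehicle, was 0.443 at *Gbp5* (95% interval 0.271 to 0.705), 0.497 at *Gbp2* (0.302 to 0.799), 0.525 at *Gbp7* (0.318 to 0.848) and 0.930 at *Gbp3* (0.554 to 1.55). It was 0.410 at *Igtp* (0.296 to 0.560) and 0.421 at *Irgm1* (0.308 to 0.571). The median over all promoters with a peak in both libraries was 0.583, within the intervals of the 4 guanylate-binding protein genes and above those of *Igtp* and *Irgm1*. All intervals are exact binomial ones and cover counting error only, not variation between mice or library preparations. They treat fragments as independent molecules, which PCR copies are not.

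In *GFI1-36N* mice the median over all promoters was 1.25. The ratio at *Gbp7* was 0.481 (0.311 to 0.726) and at *Gbp5* 0.677 (0.475 to 0.955), so that these intervals lay below 1 and below the median of all promoters. *Gbp2* had a ratio of 0.847 (0.584 to 1.22), whose interval included 1 and ended below that median. The ratios were 1.24 at *Gbp3* (0.812 to 1.89), 1.18 at *Igtp* (0.928 to 1.497) and 1.09 at *Irgm1* (0.869 to 1.36), with the median of all promoters inside each interval.

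In *GFI1-KD* mice the median over all promoters was 0.885. *Gbp7* had a ratio of 0.505 (0.362 to 0.696) and *Igtp* of 0.568 (0.446 to 0.719), with intervals below that median. *Irgm1* had 0.747 (0.603 to 0.922), below 1 but with the median inside its interval. The intervals of *Gbp2* at 0.718 (0.505 to 1.01), *Gbp5* at 0.754 (0.536 to 1.05), *Gbp3* at 0.766 (0.508 to 1.14) and *Gbp9* at 0.699 (0.435 to 1.10) included 1. The counting intervals at these 4 genes thus did not separate the ratio from 1 in this pair, although each ratio was below 1.

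A summit lower by at least 1.5-fold was found for 6 of 7 genes in *GFI1-36S*, 1 of 7 in *-36N* and 3 of 8 in *-KD* mice, against 68.9%, 1.15% and 8.13% of all promoters. The gene in *GFI1-36N* mice was *Gbp7*, and those in *-KD* mice were *Gbp7* and the pair *Igtp* and *Irgm2*. The median ratio of the GTPase genes was 0.443, 1.09 and 0.708 in *GFI1-36S*, *-36N* and *-KD* mice.

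**Figure D3:**
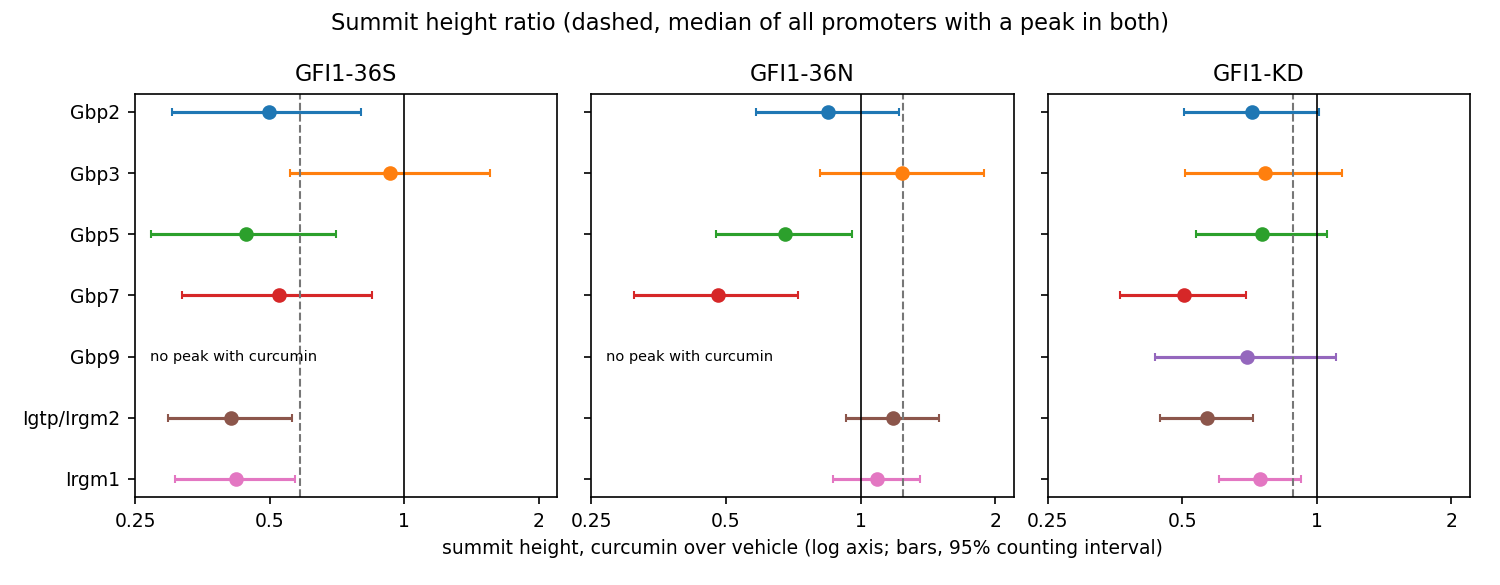
Ratio of summit heights, curcumin over vehicle (log axis), for each gene with a promoter peak in both libraries, with 95% counting intervals as bars. The dashed line is the median of all promoters, at 0.583, 1.25 and 0.885 in the 3 panels, and *Gbp7* lies left of it with its whole interval in the *GFI1-36N* and *-KD* panels.

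The widths of the strongest promoter peaks were compared next. *Irgm1* had by far the widest, at 4479 bp with vehicle and 2129 bp with curcumin in *GFI1-36S*, 5043 and 4022 bp in *-36N*, and 5115 and 3208 bp in *-KD* mice. The *Igtp* peak was 528 and 453 bp wide in *GFI1-36S*, 539 and 550 bp in *-36N*, and 629 and 467 bp in *-KD* mice. *Gbp7* went from 1042 to 802 bp in *GFI1-36S*, from 1371 to 1122 bp in *-36N*, and from 1664 to 847 bp in *-KD* mice. Narrower peaks with curcumin were found at 7 of 7 genes in *GFI1-36S*, 3 of 7 in *-36N* and 7 of 8 in *-KD* mice, against 94.6%, 38.8% and 88.2% of all promoters. The counts of narrower peaks were thus near the shares of all promoters.

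Beyond the promoters, peaks extended into the bodies of several genes, *Irgm1*, *Igtp*, *Irgm2* and *Gbp3* among them. The covered shares and lengths below run from gene start to gene end and include the promoter windows, unless stated otherwise. The 9 genes span 190227 bp together. Peaks covered 6.16% of these bases with vehicle and 2.34% with curcumin in *GFI1-36S*, 8.69% and 5.69% in *-36N*, and 8.55% and 4.98% in *-KD* mice. Over the bodies of all protein-coding genes the covered share was 2.53% and 1.21% in *GFI1-36S*, 2.48% and 2.79% in *-36N*, and 2.87% and 1.96% in *-KD* mice. In *GFI1-36N* mice the covered share of the GTPase genes was therefore lower with curcumin while that of all genes was higher.

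In each pair *Irgm2* had the widest difference in covered length. Peaks covered 3490 bp of *Irgm2* with vehicle and 433 bp with curcumin in *GFI1-36S*, 6179 and 3315 bp in *-36N*, and 5540 and 2133 bp in *-KD* mice. Outside the promoter windows the *Irgm2* values were 1216 and 0 bp, 3682 and 1178 bp, and 2936 and 927 bp, in that order. The annotated body of *Irgm2* spans that of *Igtp*, so that bases were shared. *Igtp* was covered over 1021 and 0 bp, 1924 and 635 bp, and 2193 and 0 bp in the same order. At *Irgm1* the covered length was 2764 and 1620 bp, 3398 and 2366 bp, and 3394 and 1839 bp. *Gbp3* was covered over 1671 and 860 bp, 2001 and 2037 bp, and 1880 and 1963 bp, and *Gbp5* over 1818 and 829 bp, 1924 and 1907 bp, and 2079 and 1919 bp. Their covered length differed most in *GFI1-36S* mice, where it was lower with curcumin. Outside the promoter windows the *Gbp5* values were 52 and 0 bp, 115 and 63 bp, and 97 and 179 bp, in that order. The *Gbp3* values there were 576 and 0 bp, 786 and 771 bp, and 665 and 773 bp.

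**Figure D4:**
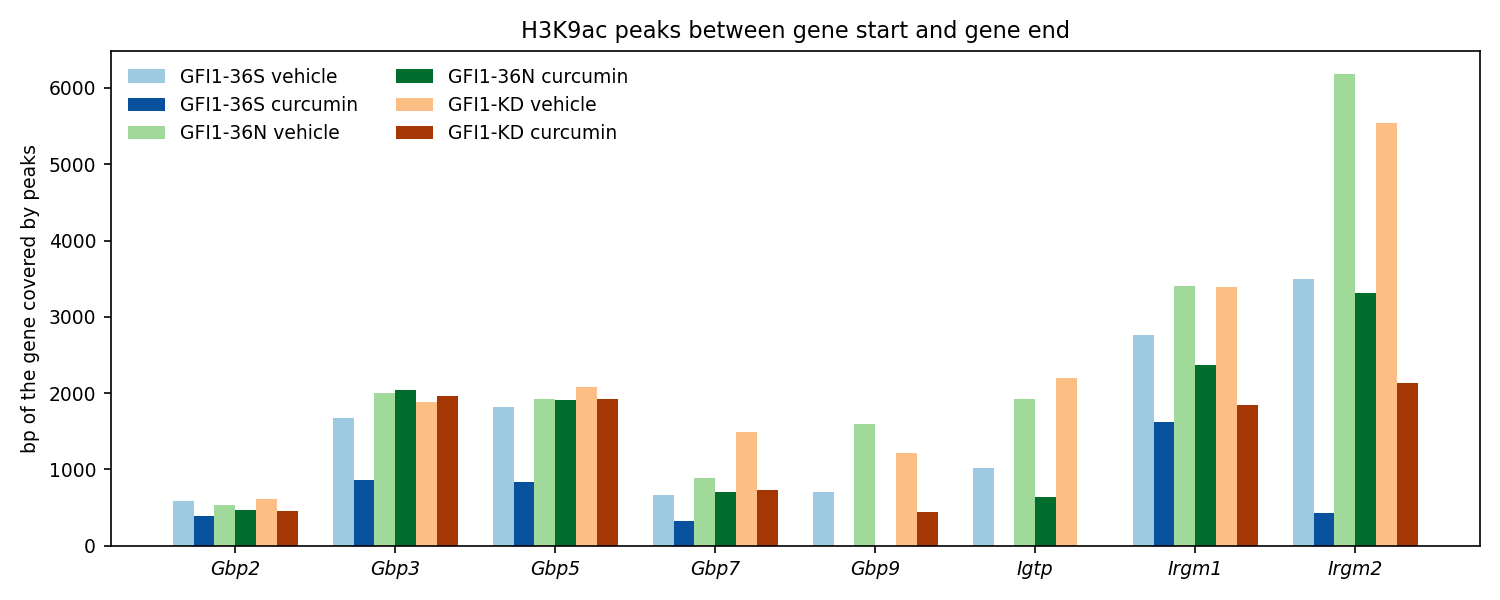
Bases between gene start and gene end, promoter windows included, covered by H3K9ac peaks (vertical axis, bp) for each gene and library. *Irgm2* differed most, with 6179 bp in *GFI1-36N* vehicle and 3315 bp in *-36N* curcumin, and the *Gbp3* bars of the *GFI1-36N* and *-KD* pairs differed little.

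*Igtp* and the internal TSS of *Irgm2* had the same arrangement of peaks. The strong peak lay before the TSS, and a second peak began further downstream. At *Igtp* the strong peak ended between −17 and 92 bases from the TSS, and in the 4 libraries with a second peak this began 297 to 418 bases after it. At *Irgm2* the second peak began 216 to 353 bases after the TSS in 5 libraries. The stretch between them is in part repeated on the chromosome. From 22 to 308 bases after the TSS, 79.0% of the 50-base words of *Igtp* and 54.2% of those of *Irgm2* occur more than once on chromosome 11, against 1.33% and 6.43% from −500 to −1 before the TSS. Whether multiply mapped reads were kept was not stated in the sources used here, and their part in the gap was not tested.

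The other genes of the interferon response were described in the same way, by lists of their roles. Of all genes, 69.1%, 39.9% and 62.9% ranked lower with curcumin in the *GFI1-36S*, *-36N* and *-KD* pairs. Of 17 other interferon-inducible GTPases in the annotation, 12 had no promoter peak in any library, *Gbp2b*, *Gbp4*, *Gbp6*, *Gbp8*, *Gbp10* and *Tgtp1* among them. Of those with a peak in the pair, 3 of 4 ranked lower with curcumin in *GFI1-36S*, 5 of 5 in *-36N* and 4 of 4 in *-KD* mice, with median changes of −3.85, −14.6 and −9.14. *Ifi47*, another immunity-related GTPase, had a rank of 49.8 and 51.8 in *GFI1-36S*, 58.5 and 33.5 in *-36N*, and 58.99 and 23.3 in *-KD* mice. *Mx1*, an antiviral dynamin-like GTPase, ranked 12.3 and 6.35, 44.5 and 7.01, and 18.0 and 16.7.

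The receptors and kinases upstream differed widely in rank. *Ifngr2*, which encodes the other chain of the interferon-γ receptor, had no promoter peak in any library. *Tyk2*, a kinase of the type I receptor, ranked between 14.2 and 31.7, and higher with curcumin in *GFI1-36N* mice, at 22.7 and 30.1. Of 6 with a peak, 5, 3 and 5 ranked lower with curcumin in *GFI1-36S*, *-36N* and *-KD* mice, against 69.1%, 39.9% and 62.9% of all genes. The medians were −11.1, 0.18 and −5.01. *Jak1* ranked above 90 in all 6 libraries, and *Ifngr1*, which encodes the ligand-binding chain of the interferon-γ receptor, had ranks of 95.4 and 97.9 in *GFI1-36N* mice and of 94.1 and 95.1 in *-KD* mice. *Ifnar1*, a chain of the type I receptor, had ranks of 64.1 and 74.3 in *GFI1-36S*, 66.3 and 56.4 in *-36N*, and 84.2 and 50.5 in *-KD* mice. *Jak2* had ranks of 81.2 and 65.9, 80.8 and 89.3, and 95.4 and 90.5, in the same order.

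The 7 transcription factor genes all had a promoter peak. In *GFI1-36S*, *-36N* and *-KD* mice 7, 6 and 6 of them ranked lower, against 69.1%, 39.9% and 62.9% of all genes. Their medians were −27.3, −12.9 and −8.99. *Irf9*, which encodes the DNA-binding subunit of the complex at the ISRE, went from 63.7 to 5.99 in *GFI1-36S*, from 87.9 to 31.4 in *-36N* and from 71.1 to 38.1 in *-KD* mice. *Irf7*, an amplifier of type I interferon production, went from 86.1 to 58.8, from 84.3 to 55.2 and from 91.9 to 64.7. *Irf1* had ranks of 71.2 and 66.7 in *GFI1-36N* mice and of 73.1 and 64.1 in *-KD* mice. *Irf8* ranked lower with curcumin in *GFI1-36N* mice, at 69.9 and 47.1, and higher in *-KD* mice, at 36.1 and 54.6.

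The remaining lists were counted in the same way, against 69.1%, 39.9% and 62.9% of all genes ranked lower in the 3 pairs. Of 5 negative regulators, 3, 2 and 3 ranked lower in *GFI1-36S*, *-36N* and *-KD* mice, with medians of −2.97, 3.39 and −10.4. Among them was *Usp18*, a brake on type I interferon signalling, with ranks of 26.7 and 26.9, 66.8 and 20.9, and 48.1 and 9.43. *Socs3*, with ranks of 52.2 and 20.4, 18.2 and 34.9, and 29.9 and 38.5, ranked higher with curcumin in *GFI1-36N* and *-KD* mice. Of 11 autophagy genes with a peak, 9, 8 and 8 ranked lower, with medians of −19.6, −5.46 and −1.84. Of the inflammasome genes with a peak in the pair, 4 of 6, 4 of 6 and 5 of 8 ranked lower. Their medians were −13.9, −8.32 and −3.47. *Casp1*, which encodes the inflammatory caspase, had ranks of 40.4 and 31.0 in *GFI1-36N* mice and of 45.2 and 18.5 in *-KD* mice. *Pycard* ranked higher with curcumin in each pair, at 12.2 and 20.9 in *GFI1-36S*, 22.7 and 37.2 in *-36N*, and 17.5 and 24.7 in *-KD* mice. Of 9 related GTPases that interferon does not induce, such as the dynamins and atlastins, 5, 5 and 8 ranked lower, with medians of −7.78, −3.13 and −4.95. No difference between lists was tested.

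**Figure D5:**
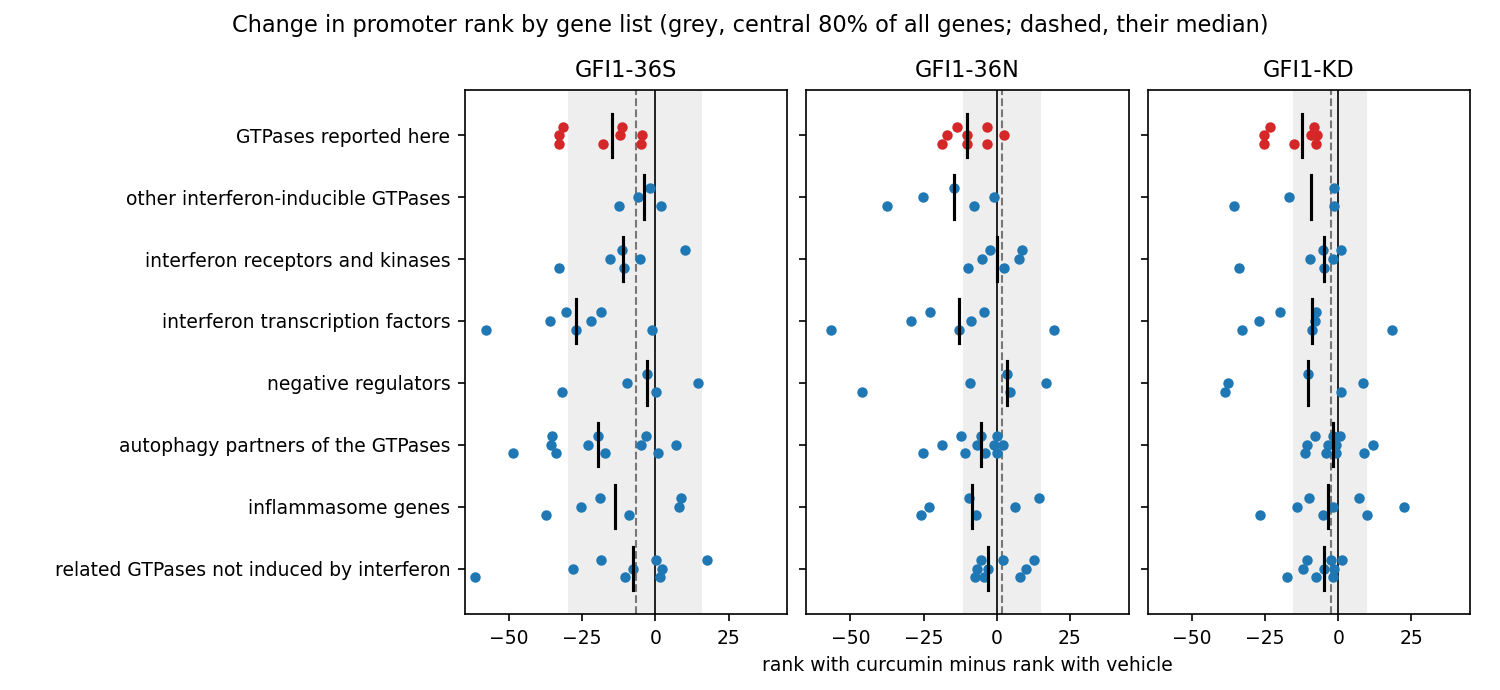
Change in promoter rank, curcumin minus vehicle (horizontal axis), for each gene with a promoter peak in the pair, by gene list (rows), with the list's median as a black bar. The grey band holds the central 80% of all genes and the dashed line their median of −6.61, 1.89 and −2.34. The GTPases reported here had medians of −14.9, −10.1 and −12.2.

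Averaged over the 9 genes, the rank was 31.1 and 14.6 in *GFI1-36S*, 36.7 and 28.5 in *-36N*, and 38.2 and 24.7 in *-KD* mice. Outside all lists, the genes with the most similar ranks over the 6 libraries, among 4293 genes, were *Cst3* (Pearson's r of 0.995), *Trim12c* (0.994), *Entpd1* (0.992), *Gm10037* (0.986) and *Rnf213* (0.986). Without the *GFI1-36S* curcumin library these values were between 0.966 and 0.986. They are a description over 6 points that share libraries, and no p is given.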

How the data were processed

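H3K9ac ChIP-seq peak lists of 6 libraries were analysed, and 2 control samples were not used. Before deposit, the authors trimmed adapters (Trim Galore), aligned to mm10 (BWA-MEM), called peaks per library (MACS2) and took out peaks of the ENCODE black list. Each deposited list holds the fold enrichment of its peaks (the ratio of fragments to the caller's background), their −log10 p and −log10 q, and an integer score. These are not normalized between libraries. The control and threshold of each list were not given in the sources used here.

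TSSs came from the basic set of GENCODE M21, promoters covered 1000 bp on each side, and 1 shared bp counted as overlap (Python 3.11.15, numpy 2.4.6, scipy 1.17.1, pandas 2.3.3). For 98.6% to 100.0% of the peaks in a list, a whole number of summit fragments was recovered that gave both fold enrichment and p, within 0.002 on the −log10 scale. The calling of lost peaks and lower ranks was tested on the *GFI1-36N* vehicle list, with peaks removed or lowered. The recovery of fragments was tested on simulated counts. The members and lists were chosen with earlier results of these data known. The genes named are all members and some of the interferon receptors, kinases and transcription factors. Genes named from another list are among its 3 with the largest fall and 3 with the largest rise, over *GFI1-36N* and *-KD* mice. *Gbp2b*, *Gbp4*, *Gbp6*, *Gbp8*, *Gbp10* and *Tgtp1* are named outside this rule as having no peak, and *Hoxa9* after its values were seen. The values of 1 listed gene are not reported here. Likeness used ranks with an SD of at least 10. Alternatives tried were a stricter list (−log10 q from 5 up), equal lists of 20354 peaks, a window of 3 kb, the summit inside the window, ranks by −log10 p, all biotypes, a peak in both libraries, another scaling and the *GFI1-36S* treatments exchanged.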

Additional observations from a re-analysis of the deposited data

Results flagged for a closer look

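*Gbp3* was the gene whose change in promoter rank with curcumin differed in direction between genotypes, at 2.63 in *GFI1-36N* mice against −4.98 in *-36S* and −7.68 in *-KD* mice. With 1 library per group the difference was not tested.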

How the results depend on the processing

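Of 91 recomputed values, 86 were counted as unchanged, although some of these differed in size. With equal lists of 20354 peaks, 6 of 7 genes ranked lower in *GFI1-36S* mice, instead of 8 of 8. The median change there was −18.5 with all biotypes and −11.9 without *Igtp*, instead of −14.9. With the *GFI1-36S* treatments exchanged, 0 genes ranked lower with curcumin, the median change in rank was 14.9, and the covered share of the gene bodies changed by 3.82 instead of −3.82 percentage points, by construction. Divided by the median ratio of all promoters, the median summit height ratio was 0.759 instead of 0.443 in *GFI1-36S* and 0.873 instead of 1.09 in *-36N* mice, since this scaling removes the shift of all promoters. Leaving out *Igtp* and using the full annotation were chosen after seeing the data. No paired analysis was possible because each group had 1 library and the labels carry no replicate numbers. Depth limits the weak peaks, such as *Gbp9*, with 23 to 55 fragments at the summit.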

Other observations

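Genes outside the GTPases with an ISRE core in a RefSeq promoter window were looked at after the GTPase promoters had been read. With curcumin, 49.1% of 371 such genes ranked lower in *GFI1-36N* mice and 71.6% of 359 in *-KD* mice, against 40.1% and 62.8% of all genes with a promoter sequence. A fall of at least 10 points was found for 19.1% and 30.4% of them, against 11.4% and 20.7%. In *GFI1-36S* mice 72.0% of 346 genes ranked lower, against 69.4%. For genes with the GAS letters, 38.8%, 62.4% and 67.0% ranked lower in *GFI1-36N*, *-KD* and *-36S* mice. These shares are given as values, with no test.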
